A study of Rattus norvegicus with 39 samples.

Results

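The 4 genes followed here encode peptide precursors and were measured in ribosome-bound mRNA of the rat nucleus accumbens (NAc). They were picked by identifier: Pdyn (ENSRNOG00000026036), Penk (ENSRNOG00000008943), Tac1 (ENSRNOG00000007374) and Vgf (ENSRNOG00000001416). Of these 4 genes, 3 have a row among the 23978 genes of the count table used here and all 3 could be tested in every comparison. Tac1, the precursor of substance P and neurokinin A, is not analysed here.

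The count table used here holds 39 libraries of polyribosome-bound mRNA, each from a single rat. The rats were adult heterozygous female Long-Evans rats of the D1-Cre (Drd1a-iCre) and D2-Cre (Drd2-iCre) lines. All rats received a Cre-dependent AAV in the NAc that puts an HA tag on the ribosomal protein Rpl22, so that anti-HA immunoprecipitation (IP) recovers ribosomes of cells that carry both Cre and virus. All rats also received a first saline injection and were then given either 6 injections of 10 mg/kg racemic ketamine or saline, spaced 4 days apart or, with longer cycles, 5 days apart, always in the same stage of the estrous cycle (proestrus or diestrus). Tissue was taken after re-exposure to the test context, 4 days after the last injection and without drug, so the saline rats share the handling, virus, injections and context of the ketamine rats. By the study's methods, ketamine females went on to IP only if their locomotor activity had risen enough over the treatment, a criterion that the saline females did not have to meet. Effects of ketamine and of this selection cannot be told apart. Each of the 8 groups (cell type by stage by treatment) has 5 libraries, apart from the ketamine-treated D2 group in proestrus with 4, from which the authors had left out 1 library as an outlier by principal component analysis. There are thus 20 D1 and 19 D2 libraries. Each library comes from another rat, and the cell type compared is set by the rat line, so line and cell type cannot be told apart. In pooled IP material, fewer tagged cells of a type and less mRNA per cell cannot be told apart either.

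Medium spiny neurons (MSNs) make up most striatal neurons and fall into 2 main classes by dopamine receptor. D1-MSNs classically carry prodynorphin (Pdyn) and the tachykinin precursor, and D2-MSNs carry proenkephalin (Penk). Each precursor is cut into small peptides in dense core vesicles: dynorphins from Pdyn act mainly at kappa opioid receptors, and enkephalins from Penk act at delta and mu opioid receptors. Vgf is a granin-like, nerve growth factor inducible precursor found in many neurons and neuroendocrine cells, and its transcription is known to respond to neuronal activity through a cAMP response element (CRE). Pdyn expression in striatal neurons also responds to dopamine and cAMP signalling.

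Total counts per library ranged from 2396517 (library 39, diestrus saline D2) to 43224256 (library 22, proestrus ketamine D2), with a median of 20494896. Levels are given in counts scaled to a common library total (CPM) after TMM normalization over all libraries. They were not divided by transcript length, so levels are compared across libraries within a gene and never between genes. Among fixed marker lists, few members could be looked up by name: 1 of 6 for D2 projection neurons (Adora2a, an adenosine receptor), 1 of 5 for all projection neurons (Rgs9), 2 of 6 for interneurons, 2 of 5 for astrocytes, 2 of 4 for oligodendrocytes, 1 of 4 for microglia and 1 of 3 for endothelial cells. None of 6 D1 markers could be looked up. Adora2a ranged from 455 to 1056 CPM in D2 libraries and from 141 to 222 CPM in D1 libraries, with no overlap between them.

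The sequences before the transcription starts of Pdyn and Vgf are shown as examples of a large D1 bias and of similar mean levels in D1 and D2 libraries. The table used has no entry for Penk, which had the opposite bias. They are the 250 bases before the RefSeq start (assembly GRCr8, sense strand of the gene, 5′ to 3′). Capitals mark exact matches, on either strand, of TATAAA, the core of the TATA box, and of TGACGTCA, the full CRE. The Pdyn window is chr3:137366504-137366753 and the Vgf window is chr12:25277021-25277270, both on the minus strand.
Pdyn: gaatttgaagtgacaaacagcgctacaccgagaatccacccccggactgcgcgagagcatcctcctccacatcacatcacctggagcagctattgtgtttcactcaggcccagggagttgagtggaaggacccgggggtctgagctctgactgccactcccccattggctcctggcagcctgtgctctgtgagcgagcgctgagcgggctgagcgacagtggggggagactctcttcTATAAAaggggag
Vgf: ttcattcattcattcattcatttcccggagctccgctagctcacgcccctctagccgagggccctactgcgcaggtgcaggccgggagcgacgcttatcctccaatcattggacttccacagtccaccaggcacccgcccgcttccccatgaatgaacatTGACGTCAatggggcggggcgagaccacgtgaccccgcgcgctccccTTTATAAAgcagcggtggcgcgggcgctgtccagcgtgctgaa
The Vgf window held the full CRE, which begins at base -90 counted from the start, and a TATA box core on both strands whose matches overlap. The Pdyn window held a TATA box core that begins at base -13 and no full CRE in these letters. Of 33469 windows of this length in the RefSeq table, 1.59% held the full CRE and 12.9% held the core of the TATA box. Neither window held the AP-1 motif TGACTCA, which 4.05% of all windows held.

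Pdyn was high in D1 libraries and low in D2 libraries in every group. In D1 libraries of proestrus females it stood at 677, 888, 1016, 1184 and 1185 CPM with saline and at 803, 913, 966, 999 and 1021 CPM with ketamine. In D1 libraries of diestrus females it stood at 726, 948, 1073, 1095 and 1112 CPM with saline and at 855, 894, 1010.3, 1073 and 1076 CPM with ketamine. The highest of these 20 values was 1.75 times the lowest, and the saline and ketamine values overlapped in both stages. The proestrus D2 values were 42.8, 46.7, 53.8, 55.0 and 70.1 CPM with saline and 43.1, 51.8, 56.3 and 58.2 CPM with ketamine. The diestrus D2 values were 44.5, 51.9, 53.9, 58.0 and 60.9 CPM with saline and 37.1, 46.1, 51.3, 62.9 and 71.5 CPM with ketamine. No D2 library came near a D1 library: the lowest D1 value (library 33, proestrus saline) was 9.46 times the highest D2 value (library 16, diestrus ketamine).

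Over each cell type, Pdyn averaged 976 ± 139 CPM (SD, n = 20) in D1 and 53.5 ± 9.07 CPM (SD, n = 19) in D2 libraries, an 18.3-fold ratio. The D2 mean was thus 5.48% of the D1 mean. It rested on 140 to 1842 counts per library, the lowest in library 39.

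Penk showed the opposite split with a smaller ratio. In D2 libraries of proestrus females it stood at 3369, 3443, 3861, 4981 and 5336 CPM with saline and at 3258, 3716, 4009 and 4399 CPM with ketamine. In D2 libraries of diestrus females it stood at 3554, 4335, 4446, 4699 and 4957 CPM with saline and at 2245, 3580.4, 4394, 4471 and 4543 CPM with ketamine. The lowest of these, library 32 in the diestrus ketamine group, lay 1013 CPM under the next lowest D2 library. In proestrus D1 libraries Penk stood at 901, 993, 1114, 1160.0 and 1202 CPM with saline and at 739, 992, 993, 1006 and 1205 CPM with ketamine. In diestrus D1 libraries it stood at 847, 875, 881, 996 and 1156 CPM with saline and at 901, 940.4, 1149, 1254 and 1272 CPM with ketamine. Even library 32 stayed above every D1 library, at 1.76 times the highest of them.

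Penk averaged 4084 ± 744 CPM (SD, n = 19) in D2 and 1029 ± 151 CPM (SD, n = 20) in D1 libraries, a 3.97-fold ratio. The D1 libraries therefore held 25.2% of the D2 level of Penk, against the 5.48% of the D1 level of Pdyn that the D2 libraries held. Adora2a, another D2 gene, stood in D1 libraries at 20.3% of its D2 level.

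Vgf, in contrast, had similar mean levels in D1 and D2 libraries. In D1 libraries it stood at 380.2, 474, 515, 549.8 and 691 CPM (proestrus saline) and 389, 447, 503, 551 and 556 CPM (proestrus ketamine). In diestrus D1 libraries it stood at 447, 447, 489.6, 541 and 656 CPM with saline and 402, 426, 511, 518 and 525 CPM with ketamine. These values overlapped with those of D2 libraries, although D1 libraries 17 and 35 (691 and 656 CPM) stood above every D2 library and D2 library 40 (349 CPM) below every D1 library. The proestrus D2 values were 389, 434, 447, 491 and 571 CPM with saline and 434, 451, 454 and 455 CPM with ketamine. The diestrus D2 values were 402, 409, 468, 473 and 557 CPM with saline and 349, 424, 446, 462 and 548 CPM with ketamine. Vgf averaged 501 ± 80.5 CPM (SD, n = 20) in D1 and 456 ± 56.2 CPM (SD, n = 19) in D2 libraries, so that the D2 mean was 91.0% of the D1 mean.

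**Figure D1:**
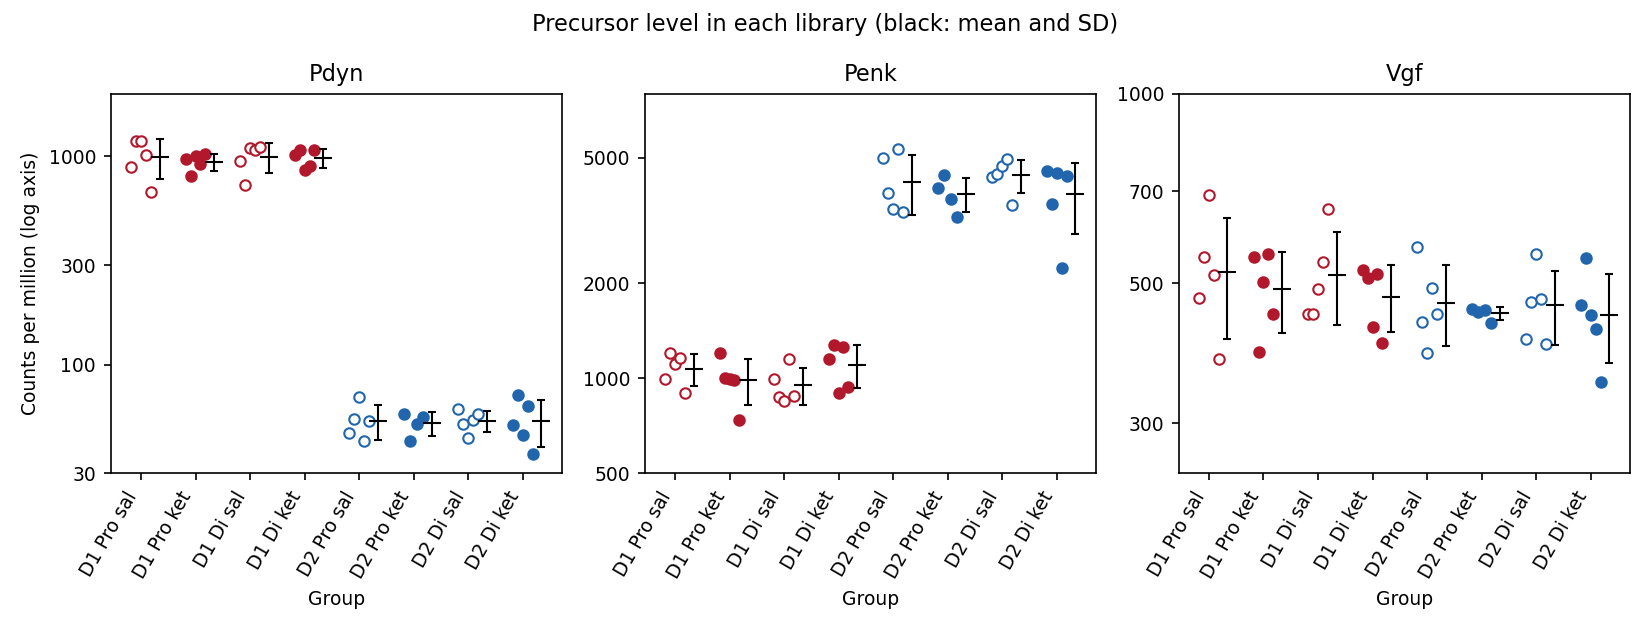
CPM of Pdyn, Penk and Vgf in each library (y axis, log scale, with its own range in each panel) by group (x axis), with saline libraries as open and ketamine libraries as filled circles, D1 in red and D2 in blue, and the mean and SD of each group in black. All D1 libraries lie above all D2 libraries for Pdyn (677 CPM at the lowest against 71.5 CPM at the highest), the order is turned round for Penk, and the groups overlap for Vgf.

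The first comparison asked whether the precursors differed between D1- and D2-MSNs within each stage and treatment. Pdyn was called lower in D2 than D1 libraries in all 5 D1 and D2 comparisons, and Penk was called higher in all 5. Calls rest on edgeR's quasi-likelihood test with 2 surrogate variables, Benjamini-Hochberg adjustment over all genes tested and a limit of 0.1 on the adjusted p. Over all saline libraries, where 28.8% of 13689 genes were called, the log2 change (D2 minus D1) of Pdyn was -4.21 (SE 0.117, edgeR adjusted p = 1.98e-14) and that of Penk was 2.08 (SE 0.0843, edgeR adjusted p = 1.27e-12). Since a large part of all genes was called there, the size of the change sets these genes apart more than the call does: the median absolute log2 change over all genes tested was 0.10. The number of genes called in these comparisons also depended on single libraries: 3941 genes were called over all saline libraries, and 1915 without library 39.

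The Pdyn difference was of similar size in each stage and treatment. In proestrus saline libraries, where 5.41% of all genes were called, it was -4.31 (SE 0.203, edgeR adjusted p = 2.47e-05). In proestrus ketamine libraries (5.61% of genes called) it was -4.17 (SE 0.125, edgeR adjusted p = 5.64e-07). In diestrus saline libraries (4.11% called) it was -4.36 (SE 0.171, edgeR adjusted p = 8.15e-07) and in diestrus ketamine libraries (12.8% called) -4.22 (SE 0.183, edgeR adjusted p = 1.51e-05). The 4 values lie within 0.19 of each other, about the size of their standard errors. The saline comparisons within a stage use the same libraries as the comparison over all saline libraries, so they are not independent of it.

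For Penk the log2 changes were 1.85 (SE 0.125, proestrus saline), 1.93 (SE 0.113, proestrus ketamine), 2.25 (SE 0.105, diestrus saline) and 1.79 (SE 0.0949, diestrus ketamine), with edgeR adjusted p-values from 6.95e-07 to 6.65e-05. The D2 bias was therefore largest in diestrus saline females by these estimates, where D1 libraries had their lowest group mean (951 CPM) and D2 libraries their highest (4398 CPM). The interaction of cell type with cycle stage in saline libraries, which tests whether the bias itself differed between the stages, was -0.31 for Penk (SE 0.173, unadjusted p = 0.0918, edgeR adjusted p = 1). No gene of 13689 was called for this interaction (0%), and the unadjusted p was under 0.05 in 2.26% of genes. For Pdyn the same interaction was 0.01 (SE 0.207) and for Vgf -0.03 (SE 0.216).

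Tests of each gene by itself, with no surrogate variable, gave the same split. Other genes enter them only through the library totals and TMM factors. In each of the 4 comparisons of a D1 with a D2 group, Pdyn did not overlap between the groups, and neither did Penk (2-sided exact permutation test of log2 CPM, p = 0.00794 in each case, the smallest that these group sizes allow, adjusted p = 0.0357 over 36 tests). Among all genes tested, 6.44% did not overlap in proestrus saline, 5.63% in proestrus ketamine, 6.02% in diestrus saline and 4.76% in diestrus ketamine libraries, and 0.63% of 14129 genes, Pdyn and Penk included, did not overlap between all D1 and all D2 libraries. The intervals from this test, the shifts not rejected at 0.05, placed the D2 level of Pdyn between 3.98% and 7.88% of the D1 level over the 4 comparisons. They placed the Penk level of D2 at between 2.36 and 5.54 times that of D1, and both ends of the range came from diestrus females, the lower with ketamine and the upper with saline.

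Vgf was called in 1 of the 5 comparisons only. Over all saline libraries it was lower in D2 than in D1 by a log2 value of -0.17 (SE 0.0697, unadjusted p = 0.0254, edgeR adjusted p = 0.0918), in a comparison that called 28.8% of all genes. Within a stage and treatment it was not called, with log2 changes of -0.15 (edgeR adjusted p = 0.391, proestrus saline), -0.14 (0.543, proestrus ketamine), -0.02 (0.981, diestrus saline) and -0.10 (0.580, diestrus ketamine). The call over all saline libraries was lost without surrogate variables (edgeR adjusted p = 0.282) and without library 39, the shallowest (log2 change -0.10, edgeR adjusted p = 0.547). Conversely, Vgf was called lower in D2 in proestrus ketamine libraries without library 10 (-0.21, edgeR adjusted p = 0.0274) and in diestrus ketamine libraries without library 16 (-0.18, edgeR adjusted p = 0.0301). The exact test placed the D2 level of Vgf between 69.0% and 119% of the D1 level over the 4 groups. Each of these intervals includes equal levels.

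Markers of other cells moved with the cell type in the same libraries. Over all saline libraries, the oligodendrocyte gene Mog (log2 change 0.51, edgeR adjusted p = 0.0239), the astrocyte gene Gja1 (0.59, edgeR adjusted p = 0.0105) and the endothelial gene Flt1 (0.82, edgeR adjusted p = 0.0105) were higher in D2. The interneuron genes Sst, the somatostatin precursor, and Nos1 were lower in D2, by log2 values of -1.61 (edgeR adjusted p = 6.2e-06) and -1.78 (edgeR adjusted p = 9.13e-07). The summed level of Sst and Nos1 ranged from 247 to 833 CPM in D1 and from 71.9 to 288 CPM in D2 libraries, and the level of Mog from 5.01 to 9.51 CPM in D1 and from 5.65 to 16.1 CPM in D2 libraries. Gfap, the other astrocyte gene found, averaged 20.0 CPM in the 20 D1 and 26.1 CPM in the 19 D2 libraries. Its ranges overlapped (11.3 to 32.6 CPM in D1 and 16.7 to 60.1 CPM in D2). The microglial gene Aif1 was near 0 in both cell types (0.363 to 2.16 CPM). The part of these cells in the Pdyn, Penk and Vgf differences was not tested. Unlike Pdyn, Sst overlapped between the cell types (the lowest D1 library stood at 0.820 times the highest D2 library).

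**Figure D2:**
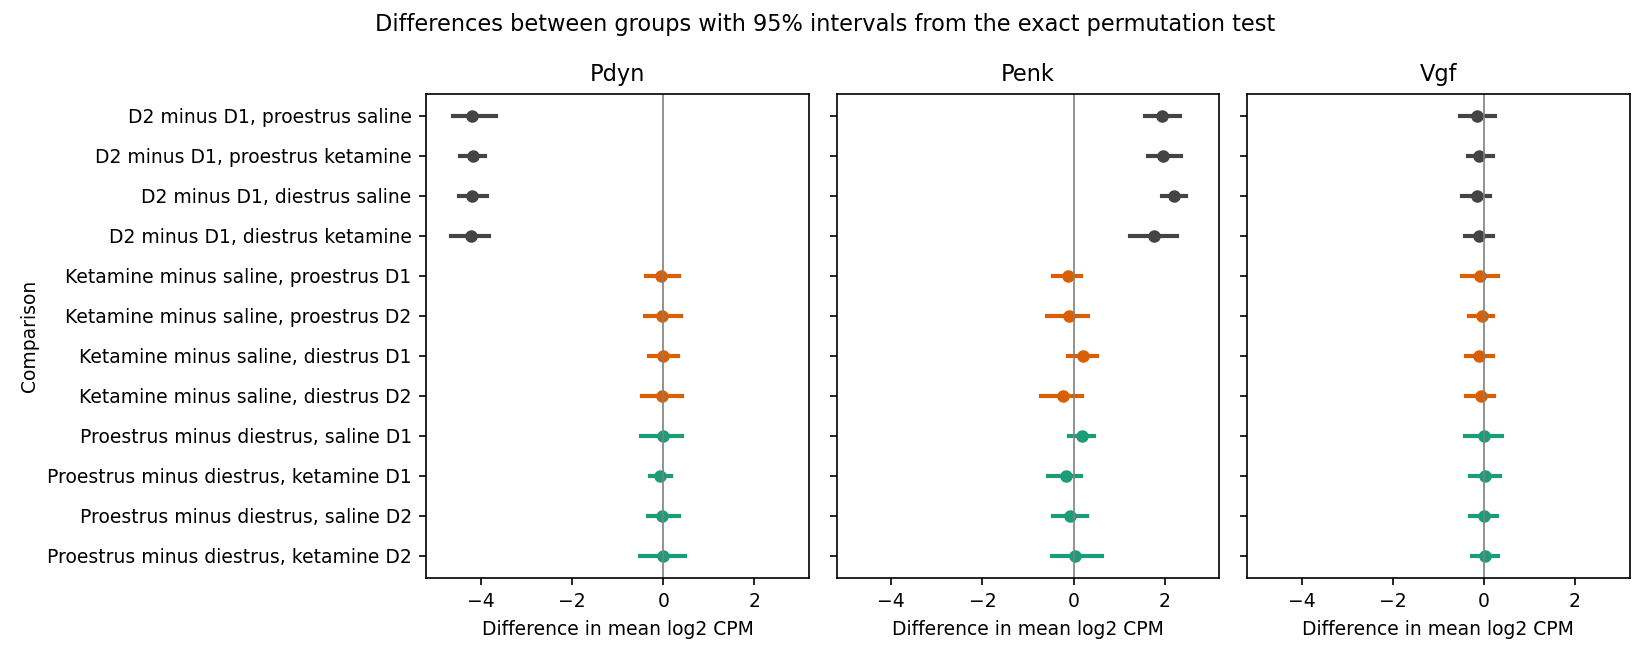
Differences in mean log2 CPM (x axis) for the 12 comparisons of 2 groups (y axis), with the difference as a point and the 95% interval from the exact permutation test as a bar, in grey for D2 minus D1, in orange for ketamine minus saline and in green for proestrus minus diestrus. The D2 minus D1 intervals lie far from 0 for Pdyn and Penk, and every other interval crosses 0.

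The next comparison asked whether repeated ketamine changed the precursors 4 days after the last injection. None of the 3 genes was called in any cell type and stage. The study itself listed Pdyn among the genes lowered by ketamine in proestrus D1-MSNs. It used DESeq2 with surrogate variables, and the fits here did not call Pdyn there under any setting run. The cause of this difference was not tested. All genes together gave few calls here: 0.00759% of 13183 genes in proestrus D1 libraries (1 gene), 0.0227% of 13214 in diestrus D1 libraries (3 genes) and 0% in both D2 comparisons, with 2.64% to 5.80% of genes at an unadjusted p under 0.05. Counts were simulated with the libraries of the proestrus D1 comparison, with 200 genes changed at once. The same steps recovered 53.5% of genes changed by a log2 value of 0.5 and 83.5% of those changed by 1. Of these calls, 6.96% and 10.7% were false. A gene that changes alone was not simulated, so these shares do not carry over to a single member. Changes under about 0.5 would often be missed.

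In D1-MSNs of proestrus females, Pdyn averaged 940 ± 87.0 CPM with ketamine and 990 ± 215 CPM with saline (SD, n = 5 each), a log2 change of -0.04 (SE 0.142, edgeR adjusted p = 0.973). The exact permutation test (2-sided, n = 5 and 5) gave p = 0.786 and an interval from 76.6% to 128% of the saline level. In diestrus D1 libraries the means were 982 ± 102 CPM with ketamine and 991 ± 161 CPM with saline, a log2 change of -0.03 (SE 0.113, edgeR adjusted p = 1.00). In D2 libraries, where Pdyn is low, the log2 changes were -0.01 (SE 0.188) in proestrus and -0.14 (SE 0.155) in diestrus. All 4 point estimates were negative and smaller than their standard errors, and each turned positive when some single library was left out (0.12 in diestrus D2 without library 40). In a single model of all libraries the diestrus D2 estimate was 0.055.

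Leaving out single libraries moved the proestrus D1 value of Pdyn between -0.19 and 0.01 on the log2 scale, with edgeR adjusted p-values of 0.153 or more. The saline group holds the lowest and the 2 highest Pdyn values of that stage, and its SD is 2.47 times that of the ketamine group. No test of the difference in spread was made.

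Penk gave the largest ketamine estimate of the 3 genes. In diestrus D1 libraries it averaged 1103 ± 174 CPM with ketamine and 951 ± 128 CPM with saline (SD, n = 5 each), a log2 change of 0.18 (SE 0.0663, unadjusted p = 0.0235, edgeR adjusted p = 1.00). Of 5 ketamine libraries, 2 lay above every saline library, and none lay below all of them. In the other strata the Penk estimates were negative: -0.11 (SE 0.0884) in proestrus D1, -0.06 (SE 0.139) in proestrus D2 and -0.11 (SE 0.148) in diestrus D2 libraries. The proestrus D2 estimate turned positive in a single model of all libraries (0.021). The diestrus D2 estimate ran from -0.25 to -0.11 over 9 settings that keep every library, and the difference in mean log2 CPM of the same libraries was -0.23 (2-sided exact permutation p = 0.317). In diestrus D2 libraries the ketamine group includes library 32, the lowest D2 library for both Penk and Adora2a. The exact intervals of the 4 Penk comparisons ran from 60.5% at the lowest to 144% at the highest of the saline level, the lowest in diestrus D2 and the highest in diestrus D1 libraries.

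Vgf was not called in any ketamine comparison. All 4 estimates were negative, that of proestrus D2 only with library 5 (0.00084 without it). The log2 changes were -0.04 (SE 0.0792, proestrus D1), -0.11 (SE 0.0712, proestrus D2), -0.14 (SE 0.122, diestrus D1) and -0.15 (SE 0.133, diestrus D2), with edgeR adjusted p-values of 0.952 or more. The intervals from the exact test ran from 71.9% to 124% of the saline level. Of the activity-regulated genes listed for context, only Egr2 could be looked up among 12, and it was called in no ketamine comparison.

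Whether a ketamine effect differed between stages or cell types was tested by interaction terms, and 0% of genes were called in each of the 5 interaction tests. The largest member value was that of Penk, for which the ketamine effect in diestrus was lower in D2 than in D1 by a log2 value of -0.37 (SE 0.199, unadjusted p = 0.0816, edgeR adjusted p = 1.00). Within D1 libraries the ketamine effect on Penk was lower in proestrus than in diestrus by -0.30 (SE 0.163, unadjusted p = 0.0895, edgeR adjusted p = 0.977). For Pdyn the interaction of ketamine with cycle was -0.06 in D1 (SE 0.137) and -0.04 in D2 libraries (SE 0.225). For Vgf the same terms were 0.09 (SE 0.139) and 0.03 (SE 0.164).

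The ratio of 2 members within a library needs no normalization between libraries. The ratio of Penk to Pdyn counts in D1 libraries had group medians between 1.05 and 1.14, and in D2 libraries between 70.2 and 88.5, where single libraries ranged from 35.7 (library 32) to 125 (library 29). These are ratios of read counts and not of molecules per length. Neither this ratio nor that of Vgf to Pdyn differed between ketamine and saline beyond the spread between libraries: over 8 tests the log2 differences ran from -0.20 to 0.21, and the lowest 2-sided exact permutation p was 0.23 (adjusted p = 0.960 over the 8 tests). The largest difference was the Penk to Pdyn ratio in diestrus D1 libraries, 1.16-fold higher with ketamine.

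The last comparison asked whether cycle stage alone moved the precursors. No gene was called between proestrus and diestrus in any cell type and treatment (0% in each of 4 comparisons), while 3.45% to 4.09% of genes had an unadjusted p under 0.05. Penk in saline D1 libraries came closest of the members. It averaged 1074 ± 125 CPM in proestrus and 951 ± 128 CPM in diestrus (SD, n = 5 each), a log2 change of 0.21 (SE 0.0567, unadjusted p = 0.00229, edgeR adjusted p = 0.999), and stood at place 23 of 13183 genes by p. The 2-sided exact permutation test of the same libraries, which uses no surrogate variable, gave p = 0.143, with 2 proestrus libraries above every diestrus library. This comparison and the ketamine comparison in diestrus D1 libraries share the same 5 diestrus saline libraries, in which Penk had its lowest group mean. With ketamine the Penk estimate was -0.14 (SE 0.105) in D1 libraries.

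Pdyn and Vgf changed little between the stages. For Pdyn the 4 estimates (proestrus minus diestrus) ran from -0.07 to 0.05 and for Vgf from -0.05 to 0.05 on the log2 scale. The widest exact interval for Pdyn, in ketamine D2 libraries, ran from 70.5% to 139% of the diestrus level. Within D1 libraries the 4 Pdyn group means spanned a factor of 1.05, while libraries of 1 group varied by 9.25% to 21.7% (coefficient of variation).

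Ordering the 8 groups by mean level gave the same picture for each gene. For Pdyn the 4 D1 groups (940 to 991 CPM) stood above the 4 D2 groups (52.3 to 53.8 CPM). For Penk the 4 D2 groups (3845 to 4398 CPM) stood above the 4 D1 groups (951 to 1103 CPM). The step between the cell types was the only one between neighbours with an exact permutation p of 0.00794 (adjusted p = 0.0833 over 21 steps). All other neighbours had 2-sided exact permutation p-values of 0.381 or more and do not differ beyond their spread. For Vgf the 4 D1 groups (476 to 522 CPM) again stood above the 4 D2 groups (446 to 466 CPM), and no step between neighbours had an exact permutation p under 0.619.

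The genes whose pattern was most like that of each member were sought among 14129 genes over 39 libraries, by Pearson's r of log2 CPM, as a description with no test. For Penk the most alike gene was Adora2a (r = 0.994). For Pdyn the first 2 genes were ENSRNOG00000023688 (r = 0.997) and ENSRNOG00000017556 (r = 0.996), which the sources used here pair with no symbol. These values rest mainly on the step between D1 and D2 libraries. With group means removed, the same 2 identifiers remained the 2 most alike for Pdyn (r = 0.823 and 0.827), and the genes nearest to Penk were Ppp2r5a (r = 0.912), Tesc (r = 0.901), Adora2a (r = 0.899), ENSRNOG00000068741 (r = 0.899, no symbol) and Rbfox1 (r = 0.898). For Vgf, which has no such step, the nearest gene with a symbol was Pgs1 by levels, without removal of group means (r = 0.777). With group means removed, the nearest to Vgf was ENSRNOG00000059406 (r = 0.804, no symbol).

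Within a cell type, the libraries of a group still differed, and the members did not vary independently. The deviation of each library from its group mean (log2 CPM) was compared between members in 6 tests. In D2 libraries, those with less Penk had more Pdyn: r was -0.67 and Spearman's rho was -0.75 (n = 19, permutation p = 0.0130 and 0.00157, adjusted 0.0390 and 0.00942). Without the 2 libraries farthest from the median of Pdyn (16 and 40), r was -0.74 (permutation p = 0.00211). In D1 libraries the corresponding r was 0.30 (rho 0.19, n = 20, permutation p = 0.190), and 0.09 without libraries 11 and 33.

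In D1 libraries Pdyn and Vgf deviated together, with r = 0.68 and rho = 0.53 (n = 20, permutation p = 0.00681 and 0.0282, adjusted 0.0390 and 0.0575). Without libraries 11 and 33, the 2 with the lowest Pdyn, r was 0.54 (permutation p = 0.0291, adjusted 0.0582). Library 33 was the lowest D1 library for both genes. Penk and Vgf gave r = 0.51 and rho = 0.53 in D1 libraries (n = 20, permutation p = 0.0289 and 0.0287, adjusted 0.0577 and 0.0575), and 0.49 without libraries 20 and 34.

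In D2 libraries Penk and Vgf gave r = 0.33 and rho = 0.52 (n = 19, permutation p = 0.273 and 0.0589), and 0.35 without libraries 29 and 32. Pdyn and Vgf gave r = -0.04 and rho = -0.24 (n = 19, permutation p = 0.888 and 0.387). The last value rested on libraries 16 and 40, the highest and lowest in Pdyn: without them r was -0.75 (permutation p = 0.00130, adjusted 0.00633).

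**Figure D3:**
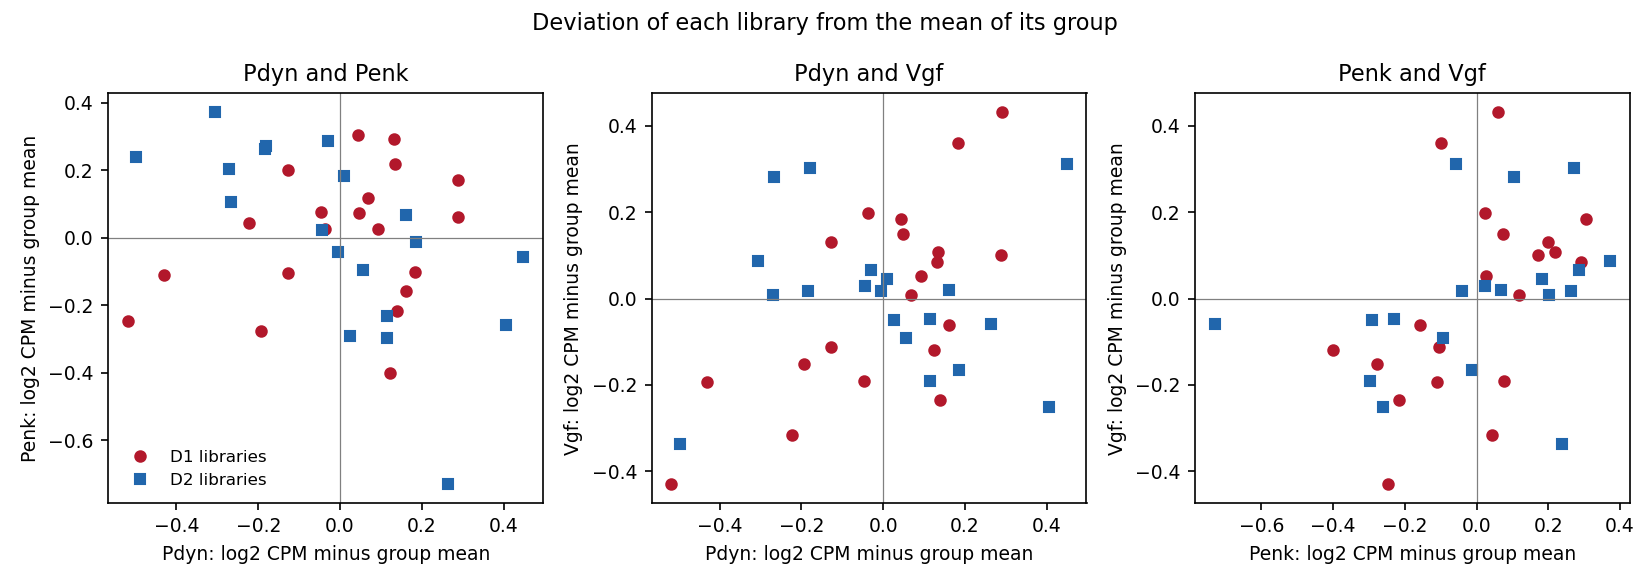
Deviation of log2 CPM from the mean of the library's group for each pair of genes (x and y axes), with D1 libraries as red circles and D2 libraries as blue squares. D2 libraries fall from upper left to lower right for Pdyn and Penk (r = -0.67), and D1 libraries rise together for Pdyn and Vgf (r = 0.68).

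Marker genes moved with these deviations. Penk followed Adora2a in both cell types, with r = 0.95 and rho = 0.93 in D2 (n = 19, permutation p = 5.0e-05, adjusted 0.00090) and r = 0.81 and rho = 0.85 in D1 libraries (n = 20, permutation p = 1e-05, the smallest that these resamples can give, adjusted 0.00036). Without the 2 farthest libraries r was 0.91 in D2 and 0.77 in D1. Penk also followed Rgs9, a signalling regulator of all MSNs, with r = 0.92 and rho = 0.89 in D2 (n = 19, permutation p = 0.00011, adjusted 0.00132). In D1 libraries the r of Penk with Rgs9 was 0.68 (rho 0.69, n = 20, permutation p = 0.00125 and 0.00140, adjusted 0.0112 and 0.0125), and it was 0.62 without libraries 20 and 34. Pdyn gave r = 0.59 and rho = 0.58 with Rgs9 in D1 libraries (n = 20, permutation p = 0.0116 and 0.0258, adjusted 0.0464 and 0.0930), and 0.51 without libraries 11 and 33. In D2 libraries Pdyn was lower where these genes were higher, with r = -0.62 and rho = -0.73 for Adora2a (n = 19, permutation p = 0.0325 and 0.00173, adjusted 0.107 and 0.0125) and r = -0.59 and rho = -0.65 for Rgs9 (n = 19, permutation p = 0.0558 and 0.0156, adjusted 0.168 and 0.0646). Without libraries 16 and 40 these r values were -0.66 and -0.53. In all, 36 relations of a member with a marker were computed after the values had been seen, and the adjusted p-values cover all of these. Not all of the 36 are reported here.

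In D2 libraries Pdyn followed the astrocyte connexin Gja1, where r was 0.64 and rho 0.61 (n = 19, permutation p = 0.00215 and 0.0161, adjusted 0.0155 and 0.0646). Without libraries 16 and 40 this r was again 0.64. Penk gave -0.32 with Gja1 in D2 libraries (n = 19, permutation p = 0.158). In D1 libraries, Pdyn gave -0.30 with Gja1 (n = 20, permutation p = 0.328). The part of astrocyte mRNA in these relations was not tested, and Gfap, the other astrocyte gene found, was not compared with the members.

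In D1 libraries Vgf followed Sst, with r = 0.62 and rho = 0.65 (n = 20, permutation p = 0.00876 and 0.00585, adjusted 0.0394 and 0.0351), and r was 0.54 without libraries 17 and 33. Pdyn followed Egr2, an immediate early gene, in D1 libraries with r = 0.69 but rho = 0.46 (n = 20, permutation p = 0.00321 and 0.0560, adjusted 0.0171 and 0.158). That relation fell to r = 0.46 without libraries 11 and 33. For Vgf and Egr2 in D1 libraries r was 0.53 (n = 20, permutation p = 0.0248, adjusted 0.0893). Neither gene followed Egr2 in D2 libraries, where r was -0.04 for Pdyn and 0.16 for Vgf (n = 19, permutation p = 0.895 and 0.550).

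**Figure D4:**
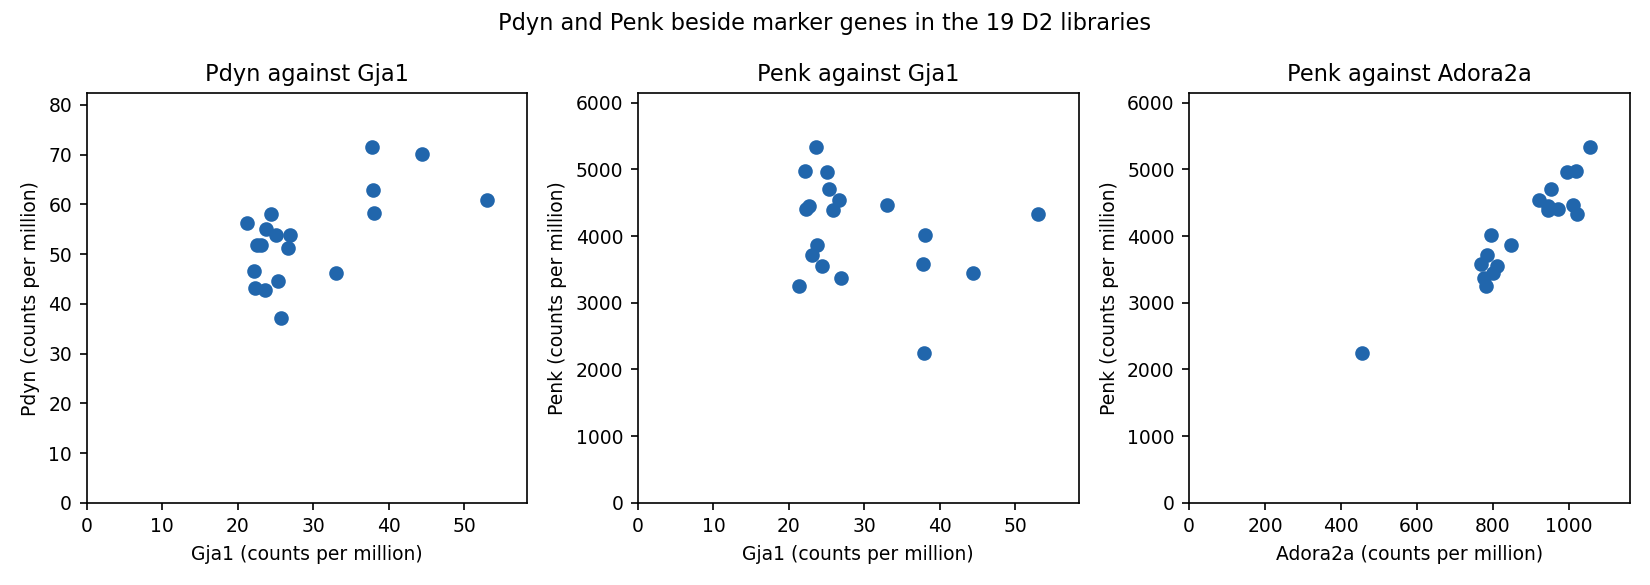
CPM of Pdyn and Penk (y axes) against Gja1 and Adora2a (x axes) in the 19 D2 libraries, each a blue circle. Pdyn tends to be higher where Gja1 is higher (r = 0.64 for the deviations from group means), and Penk rises with Adora2a over all libraries, from 2245 CPM in library 32.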

How the data were processed

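Per the labels and the study's methods, the authors trimmed reads with fastp 0.23.4, checked them with FastQC 0.12.1, quantified transcripts with Salmon 1.10.2 against the mRatBN7.2 annotation and used tximport to sum them by gene. The table they deposited holds estimated counts (expected counts rounded to whole numbers), not normalized, for 23978 genes in 39 libraries, and the submitters' notes also name DESeq2 1.42.1. The effective lengths are not used here. Depth ranged from 2396517 to 43224256 counts, with a median of 20494896. The p-values of the exact tests measure the spread between single rats. Those of the main edgeR fits measure the spread between rats that is left after 2 surrogate variables. The authors had left out 1 library of proestrus D2 with ketamine as an outlier. No library number occurs in 2 groups, and the main fits used no pairing.

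Each comparison was fitted on the counts of its own libraries with edgeR 4.0.16 in R 4.3.3 (filterByExpr by group, minimum count 10, TMM, robust glmQLFit and glmQLFTest, Benjamini-Hochberg over all genes tested, 2 surrogate variables from svaseq of sva 3.50.0, call at an adjusted p under 0.1). Cycle stage was in the model over all saline libraries. Single genes were compared in log2 CPM (TMM over all libraries, prior count 1) by 2-sided exact permutation tests, with intervals made of the shifts not rejected at 0.05. Ratios within a library are of counts with 1 added. Correlations use deviations from group means and 100000 resamples within groups (Python 3, scipy). The steps were tested on simulated data with 200 genes changed at once. In the D1 against D2 comparison of proestrus saline libraries (13283 genes) they recovered 56.5% of genes changed by a log2 value of 0.5 and 80.0% of those changed by 1. Of these calls, 13.7% and 10.6% were false.

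The rule for named genes was the 4 members in every comparison, fixed context and marker lists, and the genes most alike. The members and lists were chosen with earlier results of these data known. A symbol was found for 1966 identifiers only, through the study's supplementary tables, and those of Pdyn and Penk were given with the choice of members. No gene of the lists for peptide processing and for peptide receptors could be looked up, and of 13 other precursors only Sst. Of the marker lists, 1 gene is not reported here. Alternatives were 0 or 1 surrogate variables, DESeq2 1.42.0 with 2 or none, edgeR scaled by DESeq2 size factors, no filter, a single model, sets of 8 consecutive library numbers as a block, a threshold of 0.05, CPM by total count, a pseudocount of 0.5 in ratios, and libraries left out. Promoter windows are from RefSeq (GRCr8) and 2 of the 3 analysed members have an entry.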

Additional observations from a re-analysis of the deposited data

Results flagged for a closer look

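Among the 39 libraries that the authors kept, no library stood far from its group by Dixon's criterion in any of the 24 sets of 4 or 5 libraries (3 genes in 8 groups), where chance alone would give about 1 in 20, and no interaction term of the 3 genes passed the test.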

How the results depend on the processing

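Pdyn and Penk kept their direction and their call in all 5 comparisons of D1 with D2 libraries under every setting run, including each library left out in turn (for the comparison over all saline libraries only libraries 33 and 39, and for interactions only library 33 and the shallowest library of each). No setting gave a call for a member in a ketamine, cycle stage or interaction test. The call of Vgf over all saline libraries (log2 change -0.17) was lost with no surrogate variable (-0.16, adjusted p = 0.282), 1 surrogate variable (-0.15, adjusted p = 0.311), DESeq2 with none (-0.16, adjusted p = 0.234), a single model of 39 libraries (-0.15, adjusted p = 0.486), library sets as a block (-0.15, adjusted p = 0.342) and at a threshold of 0.05 (-0.17), and kept with DESeq2 and 2 surrogate variables (adjusted p = 0.0536). The cause was not tested.

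Every other sign change was of a value not called on either side, and its cause was not tested. Most were of values near 0, with exceptions such as Pdyn under ketamine in diestrus D2 (-0.14, against 0.055 in a single model and 0.12 without library 40), the Penk interaction of ketamine with cell type in proestrus (0.14) and the Penk to Pdyn ratio under ketamine in diestrus D2 (-0.20, against 0.050 without library 32). In log2 values, with ketamine minus saline as ketamine and proestrus minus diestrus as stage, these were as follows. With no surrogate variable: Pdyn 0.0094 (ketamine, diestrus D2), -0.0024 (stage, saline D1) and -0.035 (stage, ketamine D2), Vgf 0.015 (stage, saline D1), 0.011 (stage, saline D2), -0.0035 (ketamine by stage, D2), 0.064 (ketamine by cell type, diestrus) and 0.0052 (cell type by stage, saline), and Penk -0.0061 (ketamine by cell type, proestrus). With 1 surrogate variable: Pdyn 0.019 (ketamine, diestrus D2), -0.059 (stage, saline D1) and -0.0041 (stage, ketamine D2), and Vgf 0.017 (ketamine by cell type, diestrus). With DESeq2 and no surrogate variable: Pdyn 0.0070, -0.00049 and -0.039 in the same 3 comparisons, Vgf 0.017 (stage, saline D1), 0.015 (stage, saline D2), -0.0076 (ketamine by stage, D2) and 0.068 (ketamine by cell type, diestrus), and Penk -0.0041 (ketamine by cell type, proestrus). With DESeq2 and 2 surrogate variables: Pdyn 0.0024 (ketamine, proestrus D2) and -0.0036 (cell type by stage). With DESeq2 size factors: Pdyn -0.0052 (cell type by stage). With no filter: Pdyn 0.021 (ketamine, proestrus D2) and -0.017 (stage, ketamine D2), and Vgf 0.010 (stage, saline D1). In a single model: Pdyn 0.0045 (ketamine, proestrus D2), 0.055 (ketamine, diestrus D2), -0.044 (stage, ketamine D2) and -0.00035 (cell type by stage), Penk 0.021 (ketamine, proestrus D2), and Vgf 0.017 (stage, saline D1) and 0.012 (ketamine by cell type, diestrus). With library sets as a block: Pdyn -0.014 (stage, saline D1) and -0.013 (stage, saline D2), and Vgf 0.0069 (stage, saline D1), 0.0098 (stage, saline D2), 0.071 (ketamine by cell type, diestrus) and 0.027 (cell type by stage). With CPM by total count the exact test of Vgf gave -0.025 (stage, saline D1).

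With libraries left out in turn, the ranges that changed sign or call were, for Vgf in D2 minus D1, -0.15 to -0.097 (all saline), -0.21 to -0.036 (proestrus ketamine), -0.10 to 0.036 (diestrus saline) and -0.18 to -0.0093 (diestrus ketamine). For ketamine they were Pdyn -0.19 to 0.014 (proestrus D1), -0.19 to 0.17 (proestrus D2), -0.10 to 0.047 (diestrus D1) and -0.24 to 0.12 (diestrus D2), Penk -0.16 to 0.062 (proestrus D2) and Vgf -0.15 to 0.00084 (proestrus D2). For stage they were Pdyn -0.064 to 0.085 (saline D1), -0.055 to 0.13 (saline D2) and -0.028 to 0.11 (ketamine D2), Vgf -0.093 to 0.082 (saline D1), -0.030 to 0.11 (ketamine D1), -0.12 to 0.021 (saline D2) and -0.062 to 0.11 (ketamine D2), and Penk -0.16 to 0.21 (ketamine D2). For interactions, with at most 2 libraries left out singly, they were Vgf -0.0039 to 0.089 (ketamine by cell type, proestrus) and Pdyn -0.11 to 0.040 (cell type by stage). For ratios under ketamine they were Penk to Pdyn -0.15 to 0.049 (proestrus D1), -0.25 to 0.085 (proestrus D2) and -0.38 to 0.050 (diestrus D2), and Vgf to Pdyn -0.089 to 0.030 (proestrus D1), -0.18 to 0.10 (proestrus D2) and -0.11 to 0.11 (diestrus D2).

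Correlations kept their sign under every setting run. Beside the value without libraries 16 and 40 for Pdyn and Vgf in D2 (-0.75), that of Pdyn and Penk in D1 libraries passed the test with library-set means removed as well (0.54, adjusted p = 0.0286). For Pdyn and Penk in D2 libraries, r was -0.79 with library-set means removed and -0.67 without library 39. These last 2 settings were chosen after seeing the data. Genes called over all genes ranged, over the settings that keep every library, from 1848 to 4106 for D1 against D2 over all saline libraries, from 394 to 1809 within a stage and treatment, and from 0 to 16 in the ketamine comparisons. Without single libraries the shares of genes called moved as much: 3941 genes over all saline libraries became 1915 without library 39, 718 in proestrus saline became 290 without 37 and 1697 without 5, 748 in proestrus ketamine became 480 without 2 and 1098 without 6, and 546 in diestrus saline became 273 without 23 and 926 without 39. In diestrus ketamine they ran from 1156 to 2129. The labels pair no libraries. The block of library sets, of 8 consecutive numbers each, changed no call of a member beside that of Vgf over all saline libraries. Depth limits Pdyn in D2 libraries most, with 140 counts in library 39.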
